A study of Mus musculus with 16 samples.

Results

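Transcript levels in a culture of mouse cortical neurons given etoposide were compared with those of its control culture, gene by gene, across gene families and across the genomic length of the genes. Both cultures were primary neurons from the cortex of Swiss-Webster embryos at embryonic day 16. The treated culture received etoposide at 5 µM, for a time that the labels do not state, and the control's title names no treatment. Total RNA was sequenced in paired ends, 1 library a group, so the differences below rest on single libraries and carry no p-value. Of 22440 genes with a value in FPKM (fragment counts normalized to transcript length and to the library's total), 10681 had at least 1 FPKM in either library and were compared, and 21194 genes of the tables could be matched to the GENCODE annotation for gene type and exon length. The measure was log2((etoposide + 1)/(control + 1)) minus its median over these genes, called the relative log2 fold, so that 0 marks the median gene. Another library, from a further control culture that pairs with an NMDA experiment in the series, also names no treatment and serves as a further reference, called the NMDA control.

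Etoposide holds type II topoisomerases on DNA at the moment when they have cut both strands. Neurons that no longer divide carry mainly the β form, encoded by Top2b, which relieves the twist that builds up ahead of RNA polymerase and is known to matter most for long genes. Early-response genes are short genes of another kind: they are switched on within minutes of synaptic activity, without new protein synthesis, and many encode transcription factors such as Fos.

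Depth was read from the spacing of low values, which gave fragment totals near 16.5 M in the control, 14.5 M with etoposide and 21.8 M in the NMDA control, so that 1 fragment on a 1 kb transcript is worth about 0.0608, 0.06904 and 0.0458 FPKM. Where a ratio carries an interval, it is the exact 95% one from these rough fragment numbers, and counting error is all that it covers. At least 1 FPKM was listed for 10459 genes in the control and 9836 with etoposide. The microRNA locus Mir5109 alone held 76.5% of the FPKM sum in the control and 68.7% with etoposide. Whether this bears on the FPKM of other genes was not tested. The median uncentred log2 fold was -0.32 for this pair, and the relative fold takes it off. FPKM of the NMDA control lay on a higher scale. Against the etoposide control its values were therefore multiplied by 0.347. Where etoposide is set against the NMDA control after scaling, the etoposide values were multiplied by 3.98 before the pseudocount of 1 FPKM was added, which compresses these folds less than those against its own control, so the sizes of the 2 are not on equal terms.

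The labelled cell type was checked by markers, and neuronal ones were high in both libraries. The neuronal tubulin Tubb3 stood at 209 FPKM in the control, 101 with etoposide and 606 in the NMDA control, and the 18 pan-neuronal markers summed to 1314 FPKM in the control and 872 with etoposide. Glial genes were present too. The 24 astrocyte markers listed, of which 20 were compared, summed to 379 FPKM in the control, 228 with etoposide and 3907 in the NMDA control. These sums are as deposited, and the NMDA control lies on a higher scale. In the scaled NMDA control minus the etoposide control the median of these markers was 1.07, so the NMDA control held more glial RNA. In bulk RNA, fewer cells of a type and less RNA per cell cannot be told apart. None of the 14 endothelial and pericyte markers reached 1 FPKM in the pair, and of 14 microglial markers 2 did, Cd68 among them. The defining microglial genes Aif1, at 0.108 and 0.0623 FPKM, and Cx3cr1, at 0.0527 and 0.0772 FPKM, were near 0 in the control and with etoposide.

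Top2b (chromosome 14, 17197720 to 17263301, mouse build mm9), the target in neurons, stood at 24.2 FPKM in the control, 12.5 with etoposide and 58.5 in the NMDA control, a relative log2 fold of -0.58 and, against the NMDA control after scaling, of -0.13. The form of dividing cells, Top2a, lay under 1 FPKM in the pair, at 0.797 and 0.234 FPKM. Tdp2, the enzyme that unhooks trapped topoisomerase II from DNA ends, was at 3.01 and 3.79 FPKM, a relative log2 fold of 0.58.

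A relative log2 fold of 1 or more, at least 2-fold above the median gene, was seen for 157 genes (1.47% of those compared), and a value of -1 or less for 222 genes (2.08%). Without centring on the median gene the same thresholds were passed by 51 genes above and 786 below, so the split between higher and lower rests on the centring. The authors' deposited table lists 692 genes for this pair, 12 higher and 680 lower. Of those compared here, it holds 10 higher (0.0936%) and 671 lower (6.28%). All 10 were also 2-fold higher by the relative measure. Of the 222 genes 2-fold lower it holds 185, which is 83.3% of those 222 and 27.6% of the 671. The quartiles of the relative log2 fold over all genes compared were -0.30 and 0.30, so most differences were small.

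The extremes were short structured RNAs. Of the genes 2-fold higher, 31 were recognized by name or annotation as microRNA, small nucleolar or small nuclear RNA genes. Of these, 18 were listed at 0 in the control. Of the genes 2-fold lower 12 were of this kind, all of them at 0 with etoposide. Snord12, a small nucleolar RNA, was listed at 0 in the control, 2807 FPKM with etoposide and 757 in the NMDA control, and Snord65 went the other way, at 1673 FPKM in the control, 0 with etoposide and 921 in the NMDA control. A value of 0 can be a failed estimate here, so no fold is given for them. Leaving out the small RNAs so recognized, 126 genes were 2-fold higher and 210 lower, and these are the genes described below. Some small RNAs were missed. Snord73a and Snord87 remain among the 126, both at 0 in the control, with 260 and 151 FPKM in the etoposide library.

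The 126 and the 210 differed in size. The higher genes had a median genomic span, from the first to the last base of the locus in the tables, of 6.89 kb. Of them, 81 (64.3%) spanned under 10 kb and 2 spanned 100 kb or more. The lower genes had a median span of 150.6 kb, and 134 (63.8%) spanned 100 kb or more while 19 spanned under 10 kb. All genes compared had a median of 25.8 kb, with 23.7% under 10 kb and 16.1% of 100 kb or more. The NMDA control gave the same sign for most: against it, after scaling, 109 of the 126 were above 0 and 73 at least 2-fold higher, and 197 of the 210 were below 0 and 79 at least 2-fold lower. The genes were chosen for their fold against the other control with the same etoposide library, so these counts share that library.

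Across the 8880 genes with a locus of their own, the relative log2 fold went down step by step with span. Its median was 0.31 for 603 genes under 3 kb, 0.18 for 1718 genes of 3 to 10 kb and 0.10 for 2878 genes of 10 to 30 kb. It was -0.12 for 2456 genes of 30 to 100 kb, -0.41 for 955 of 100 to 300 kb, -0.59 for 249 of 300 to 1000 kb and -0.62 for 21 longer ones. The longest genes thus lay as far below the median gene as those of 300 to 1000 kb, with no further step. Among genes of 300 to 1000 kb 8.03% were above 0, and 43.0% were in the authors' deposited table as lower, against 0.663% of genes under 3 kb. The untreated libraries also differed along span, though less: in the scaled NMDA control minus the etoposide control, the medians of the same 7 bins were 0.25, 0.10, -0.03, -0.15, -0.19, -0.29 and -0.47. With etoposide set against the NMDA control after scaling they were 0.10, 0.10, 0.17, 0.06, -0.26, -0.37 and -0.28. In that comparison no step separated genes under 100 kb, and only those of 100 kb or more stood apart. How far the difference between cultures moves with the span difference was not tested.

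**Figure D1:**
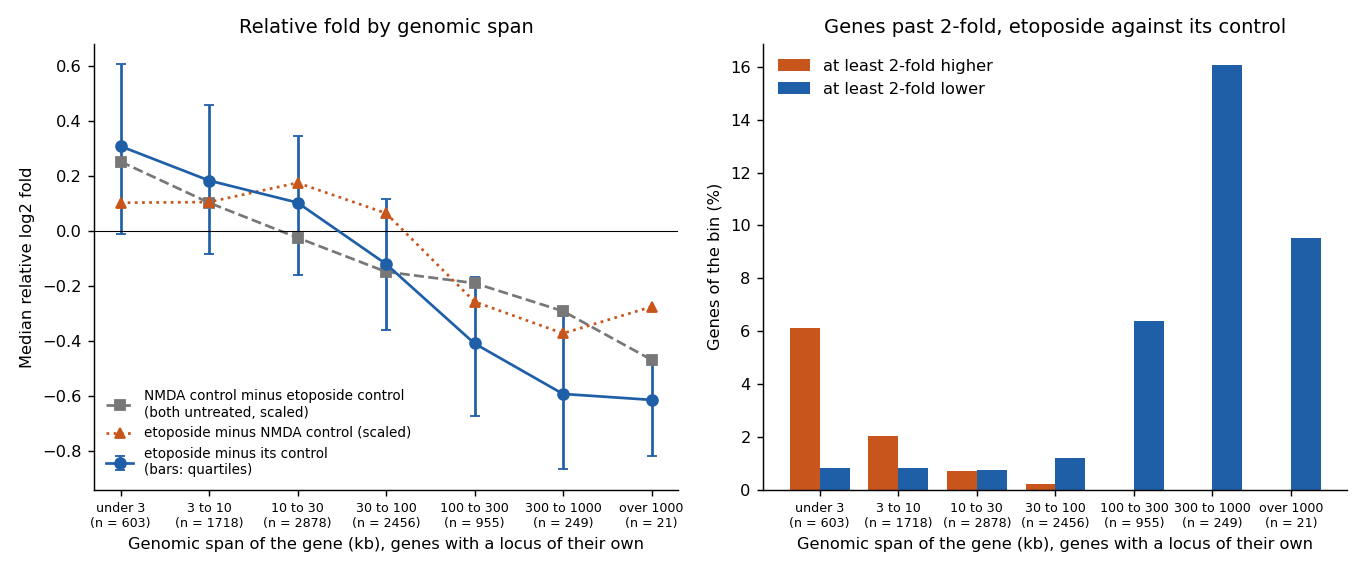
Left: median relative log2 fold in 7 bins of genomic span (kb) for genes with a locus of their own, with quartiles for etoposide minus its control (blue), and medians for the 2 untreated libraries (grey) and for etoposide minus the NMDA control after scaling (orange). Right: percentage of each bin at least 2-fold higher (orange) or lower (blue), where the lower share reaches 16.1% at 300 to 1000 kb.

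Span goes with transcript length and with level, so the bins were also read within strata of each. Among genes at 1 to 5 FPKM the median went from 0.23 under 3 kb to -0.38 at 300 to 1000 kb. At 5 to 20 FPKM it went from 0.34 to -0.78, and at 20 FPKM or more from 0.39 under 3 kb to -0.62 at 100 to 300 kb. In the 25% of genes with the shortest summed exons, 0.054 to 2.43 kb, the median was 0.34 under 3 kb and -0.17 at 100 to 300 kb. In the 25% with the longest, 5.84 to 31.2 kb, it was 0.04 at 3 to 10 kb and -0.61 at 300 to 1000 kb. Against its own control, the step along span was thus seen at each of these levels and exon lengths. The untreated libraries differed along span within the levels too: at 20 FPKM or more, the NMDA control minus the etoposide control went from 0.58 under 3 kb to -0.304 at 100 to 300 kb. With etoposide set against the NMDA control after scaling, the same genes were at -0.16 under 3 kb, between -0.04 and 0.07 from 3 to 100 kb and at -0.24 at 100 to 300 kb, so little of the step was seen there. At 1 to 5 FPKM that comparison went from 0.09 under 3 kb to -0.44 at 300 to 1000 kb, and in the 25% of genes with the longest exons from 0.22 at 3 to 10 kb to -0.37 at 300 to 1000 kb.

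The rule had exceptions at both ends. Of genes of 300 kb or more with a locus of their own and at least 5 FPKM in either library, Spock3, a secreted proteoglycan, was the highest. It was at 8.27 FPKM in the control, 10.98 with etoposide and 12.4 in the NMDA control over a span of 406 kb, a relative log2 fold of 0.69 (FPKM ratio 1.33, interval 1.21 to 1.46). Pcdh11x, a protocadherin on the X chromosome of 616 kb, was at 6.48 FPKM in the control, 6.61 with etoposide and 15.8 in the NMDA control, a relative log2 fold of 0.35. Oxr1, a gene of resistance to oxidation of 414 kb, gave 0.26 at 9.18 and 8.77 FPKM. Cntnap2, the longest gene with a locus of its own at 2241 kb, stood at 7.71 FPKM in the control, 5.08 with etoposide and 15.6 in the NMDA control, and its relative log2 fold of -0.196 lay above the median of its length class. So a very long gene was not bound to be low in the etoposide library.

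At the short end, Lcn2, a secreted iron-binding protein of the acute phase, spans 3.103 kb and stood at 23.9 FPKM in the control, 3.78 with etoposide and 13.1 in the NMDA control, a relative log2 fold of -2.06. Both other libraries lay above etoposide as deposited, but against the NMDA control after scaling the relative fold was 0.28, on the other side of 0. Olig1, a transcription factor of the oligodendrocyte lineage, spans 2.17 kb and was at 16.6 FPKM in the control, 3.36 with etoposide and 78.2 in the NMDA control, giving -1.69 and, against the NMDA control after scaling, -2.37. Thy1, a surface protein of mature neurons, was at 32.3 FPKM in the control, 9.68 with etoposide and 90.97 in the NMDA control over 5.196 kb, giving -1.32 and -1.12. The filament gene Vim, at 72.5 and 24.4 FPKM with a relative log2 fold of -1.21, and Nes, at 8.84 and 2.48 FPKM with -1.18, both span under 10 kb and mark progenitors and glia.

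Multisubunit machines, whose parts are needed in fixed amounts, held both ends of the scale, and their genes differ in length. In Mediator, the complex that bridges transcription factors to RNA polymerase II, 21 of 33 subunits were above 0 and the median was 0.11. The 21 subunit genes under 30 kb had a median of 0.35, and the 4 of 100 kb or more had -0.62. Med31, a small core subunit, was at 3.65 and 6.78 FPKM (1.06) over 6.73 kb, Med21 at 6.997 and 11.6 FPKM (0.98) over 8.02 kb. Med13l, of the kinase module that docks on Mediator, was at 5.54 and 1.76 FPKM (-0.92) over 205 kb, and Med27 at 9.42 and 3.904 FPKM (-0.76) over 178 kb. Against the NMDA control after scaling Med31 was at 0.98 and Med13l at -0.53, the same order.

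The core of transcription leaned to the high side. Of the 12 RNA polymerase II subunit genes, 11 were above 0, with a median of 0.58, and the exception was the longest, Polr2b, of 97.6 kb, at 11.4 and 7.199 FPKM (-0.28). The list's median was 0.13 against the NMDA control after scaling, but -0.18 against it as deposited. Polr2d was at 10.003 FPKM in the control, 15.6 with etoposide and 43.7 in the NMDA control (0.92), and Polr2a, the catalytic subunit, at 5.11 FPKM in the control, 4.68 with etoposide and 8.14 in the NMDA control (0.22). Over general transcription factors the median was 0.32, with 24 of 31 above 0. Taf5 was at 0.748 and 1.91 FPKM (1.06) and Gtf2i, of 76.9 kb, at 11.5 and 5.904 FPKM (-0.53). Among pausing and release factors, Hexim1, which holds the elongation kinase inactive, was the highest at 2.67 and 4.81 FPKM (0.99), and Aff4, a scaffold of the super elongation complex, the lowest at 15.5 and 8.37 FPKM (-0.496).

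Splicing factors divided by family. SR proteins, with the Tra2 pair, were above 0 for 12 of 13 (median 0.34), and hnRNP proteins for 5 of 18 (median -0.16). The median span was 10.7 kb in the former and 16.97 kb in the latter. The medians were 0.42 and -0.13 against the NMDA control after scaling. Srsf7 was at 12.3 FPKM in the control, 19.8 with etoposide and 31.4 in the NMDA control (0.97), Srsf6 at 14.5 FPKM in the control, 19.7 with etoposide and 31.7 in the NMDA control (0.73), and Hnrnpu, a nuclear matrix protein, at 35.98 FPKM in the control, 21.2 with etoposide and 118 in the NMDA control (-0.42). This split by family, like the others within lists below, was made after the values were seen. No member of either family passed 2-fold.

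Chromatin remodelers and histone methyltransferases were lower as a list, with 31 of 38 below 0 and a median of -0.35. Taking from each gene the median of its span bin left -0.05, since most of these genes are long. Arid1b, a BAF subunit of 353 kb, was at 4.201 and 1.18 FPKM (-0.93), whereas Wbp7, a histone methyltransferase of 19.9 kb, was at 3.0997 and 3.46 FPKM (0.44). The 253 zinc finger genes of the lists had a median of 0.24, with 0.303 for the 209 under 30 kb and -0.396 for the 14 of 100 kb or more. The same gene class therefore lay on opposite sides of 0 by length.

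**Figure D2:**
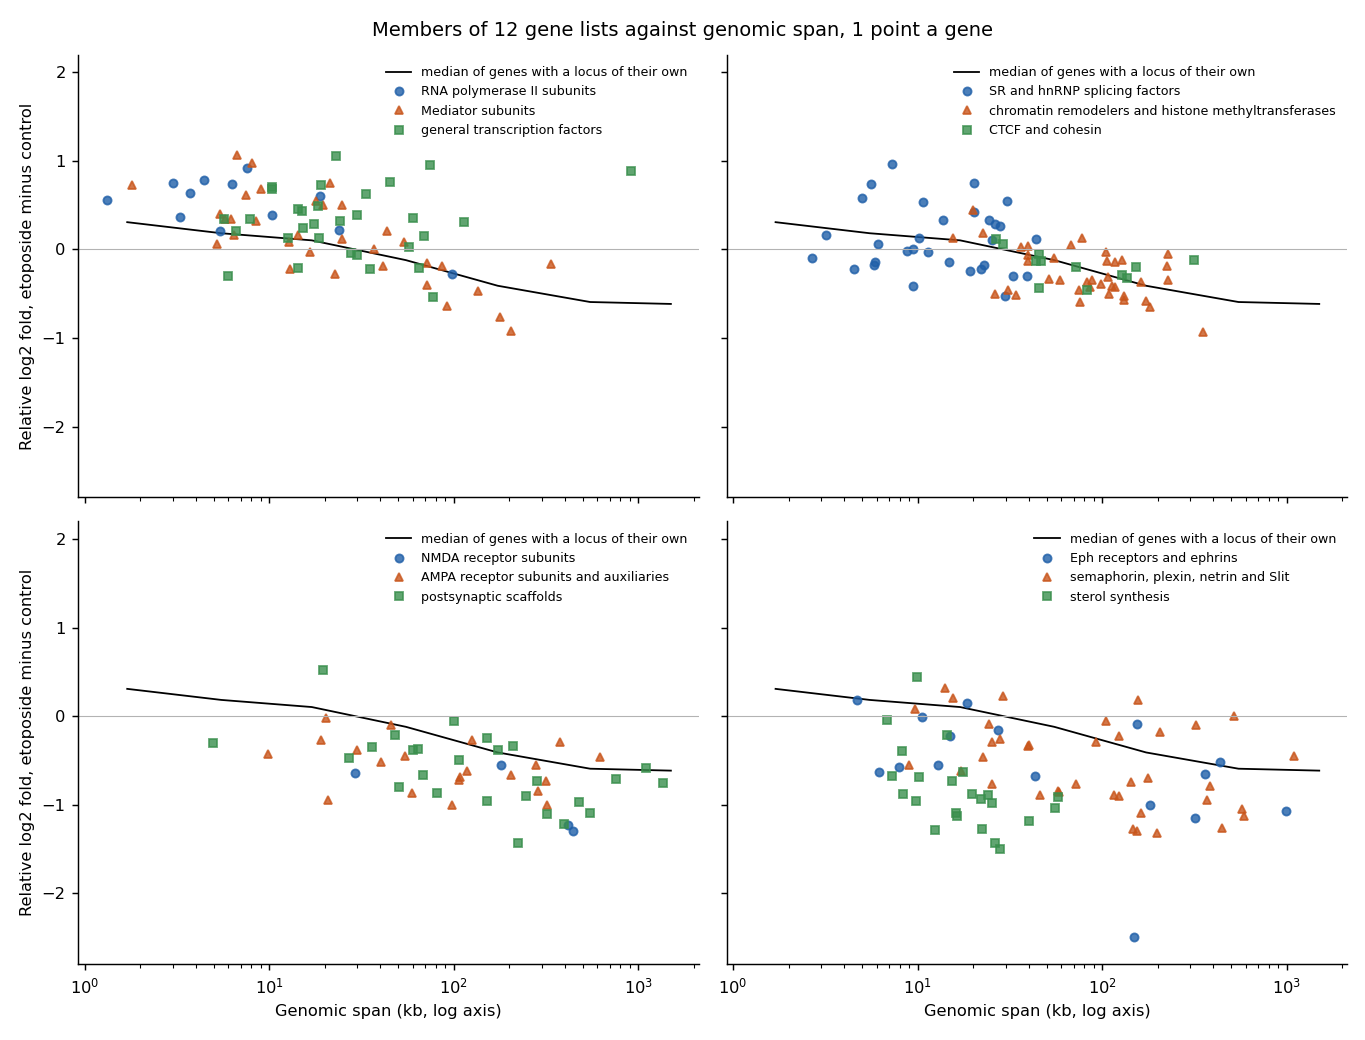
Relative log2 fold of etoposide minus its control (y) against genomic span (kb, log axis, x) for the members of 12 gene lists, 1 point a gene, with the median of genes with a locus of their own as a black line. Mediator and chromatin remodeler genes are spread around the line, while every sterol gene but Pmvk lies under it.

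Early-response genes were on the high side in parts. Promoter windows of the 3 genes that the authors' deposited table lists as higher from the Fos and Nr4a families are shown because neuronal activity acts on such genes through CREB, among other factors, and CREB binds the motif CGTCA. Capitals mark CGTCA on either strand (TGACG when read on the strand shown), and each window is 160 bases of the RefSeq promoter table, build GRCm38.p6, 5′ to 3′ on the gene's strand. Fos lies at chr12:85473740-85473899 on the plus strand, Fosb at chr7:19310036-19310195 and Nr4a2 at chr2:57123994-57124153, both on the minus strand.
Fos: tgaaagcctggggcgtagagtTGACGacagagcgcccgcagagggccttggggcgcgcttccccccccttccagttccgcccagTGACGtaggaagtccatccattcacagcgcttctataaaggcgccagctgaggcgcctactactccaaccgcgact
Fosb: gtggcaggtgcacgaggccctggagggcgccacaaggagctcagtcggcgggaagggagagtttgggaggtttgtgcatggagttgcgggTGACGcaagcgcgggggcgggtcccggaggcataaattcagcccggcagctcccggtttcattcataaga
Nr4a2: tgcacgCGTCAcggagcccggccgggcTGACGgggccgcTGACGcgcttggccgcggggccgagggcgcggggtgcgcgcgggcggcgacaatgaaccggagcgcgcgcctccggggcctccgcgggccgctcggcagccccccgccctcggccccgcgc
In the full windows, from 250 bases before to 50 after the start, 7 of 10 AP-1 genes, 3 of 3 Nr4a genes and 10 of 19 rapid effectors with a window held CGTCA. Of the 7559 genes compared that have a window, 37.6% held it. Lists that were not higher held it too: 2 of 3 genes of the Egr and Nab list and 7 of 15 sterol synthesis genes, but 2 of 17 fatty acid synthesis genes. It was also found in 28 of 55 cytosolic ribosomal protein genes, 9 of 25 p53 genes and 3 of 10 host genes of small nucleolar RNAs. The 8-base palindrome TGACGTCA, which contains CGTCA on both strands, stood in 5 of the 19 rapid effectors and in 3.995% of genes compared. It stood in 1 of 10 AP-1 genes, 0 of 3 Nr4a genes and 0 of 3 genes of the Egr and Nab list. A match is a description of letters and not of binding.

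AP-1 factors, which act as Fos and Jun pairs, were above 0 for 9 of 10 members, and 4 passed 2-fold, against 1.47% of all genes. Fos stood at 2.68 FPKM in the control, 14.7 with etoposide and 25.9 in the NMDA control and Fosb at 0.0985 FPKM in the control, 2.03 with etoposide and 2.21 in the NMDA control. The etoposide library was thus above its own control for both, and against the NMDA control after scaling the relative log2 folds were 1.24 and 1.59. Junb was at 6.46 FPKM in the control, 12.2 with etoposide and 22.4 in the NMDA control, a relative log2 fold of 1.15 and against the NMDA control after scaling of 1.18. Atf3, a stress-induced partner, was at 1.15 FPKM in the control, 2.797 with etoposide and 6.42 in the NMDA control, giving 1.14 and 0.81. Jun gave 0.72 and Jund 0.56, at 6.76 and 9.19 FPKM and 13.4 and 15.99 FPKM, and the small Maf genes split, with Maff at 1.07 and 1.89 FPKM (0.81) and Mafg at 9.78 and 6.82 FPKM (-0.14).

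Nr4a1 and Nr4a2, orphan nuclear receptors, were at 1.62 FPKM in the control, 3.71 with etoposide and 11.5 in the NMDA control and at 0.981 FPKM in the control, 3.84 with etoposide and 3.04 in the NMDA control. Their relative log2 folds were 1.17 and 1.61, and against the NMDA control after scaling 0.43 and 2.11. The remaining member, Nr4a3, was at 6.97 and 6.67 FPKM (0.27). Egr genes, which answer the same stimuli in neurons, did not share this. Egr1 was at 4.58 FPKM in the control, 3.45 with etoposide and 30.9 in the NMDA control, the relative log2 fold of the median gene, and Egr3 at 3.78 FPKM in the control, 1.14 with etoposide and 19.5 in the NMDA control, giving -0.84. Egr1 gave -1.02 and Egr3 -1.79 against the NMDA control after scaling. Arc, a postsynaptic early-response gene, stayed under 1 FPKM in the pair at 0.706 and 0.727 FPKM.

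Of 26 rapid effectors, early-response genes that encode no transcription factor, 24 were above 0 and 4 passed 2-fold (1.47% of all genes did), with a median of 0.48 and of 0.704 against the NMDA control after scaling. Most are short genes, and after span was taken off the median was 0.30, with 19 of 26 above 0. Ier2, a short-lived nuclear protein, was the highest, at 1.82 FPKM in the control, 5.46 with etoposide and 11.2 in the NMDA control (1.52). Rgs2, which shortens G-protein signals, was at 5.01 FPKM in the control, 10.9 with etoposide and 20.5 in the NMDA control (1.31). Sertad1, a cell cycle regulator, was at 1.19 FPKM in the control, 3.29 with etoposide and 5.75 in the NMDA control (1.29), and Dusp1, a phosphatase of MAP kinases, at 3.36 FPKM in the control, 6.86 with etoposide and 14.5 in the NMDA control (1.17). Against the NMDA control after scaling these 4 genes gave between 0.97 and 1.16. Ctgf, at 2.79 and 1.304 FPKM (-0.39), and Cyr61, at 4.095 and 2.599 FPKM (-0.18), both matrix proteins, were the 2 members below 0. A further activity list, short-lived regulators, was not higher, although 24 of its 25 genes spanned under 30 kb. In it 11 were above 0 and 14 below, and 0 passed 2-fold either way. Its median was -0.02, and -0.22 after span was taken off, with 7 of 25 above the median of their span bin. Against the NMDA control after scaling the median was 0.03.

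Genes of the later wave of the activity response showed no common direction against the etoposide control, with 10 of 17 above 0 and a median of 0.14. Against the NMDA control after scaling 13 of 17 were above 0, with a median of 0.53. Pcsk1, a prohormone convertase, was at 1.47 FPKM in the control, 3.17 with etoposide and 5.89 in the NMDA control (1.08), and Scg2, a granule protein, at 27.7 FPKM in the control, 36.3 with etoposide and 105 in the NMDA control (0.697). Bdnf, the growth factor, was at 3.51 FPKM in the control, 3.33 with etoposide and 9.08 in the NMDA control (0.26), and Nrp1, a semaphorin co-receptor of 146 kb, at 6.83 FPKM in the control, 1.58 with etoposide and 12.1 in the NMDA control (-1.28). Among dual-specificity phosphatases Dusp7 was the lowest at 6.77 and 3.0004 FPKM (-0.64).

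Krüppel-like factors, many of them also early-response genes, lay on the low side, with 10 of 12 below 0, a median of -0.41, and 5 in the authors' deposited table as lower (6.28% of all genes compared were). Klf13 was at 11.4 FPKM in the control, 2.298 with etoposide and 27.6 in the NMDA control, a relative log2 fold of -1.59 (control over etoposide 4.95, interval 4.28 to 5.73), and -1.399 against the NMDA control after scaling. Klf7 was at 12.6 FPKM in the control, 4.83 with etoposide and 29.2 in the NMDA control (-0.899). Their spans of 52.6 and 85.7 kb are moderate, and the list's median stayed at -0.39 after the span-bin medians were taken off. Klf6 stood at 13.3 and 11.1 FPKM (0.08).

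Among the factors that carry calcium signals to these promoters, Creb1 was at 3.38 FPKM in the control, 2.85 with etoposide and 7.54 in the NMDA control (0.14) and Crem, whose short forms repress the same sites, at 1.75 FPKM in the control, 3.67 with etoposide and 4.74 in the NMDA control (1.08). Mef2c, an activity-regulated factor of 164 kb, stood at 52.8 FPKM in the control, 13.5 with etoposide and 116 in the NMDA control, giving -1.57 and, against the NMDA control after scaling, -0.998. Srf was at 4.39 FPKM in the control, 1.84 with etoposide and 10.6 in the NMDA control (-0.601), and its coactivators Mkl1 and Mkl2 at 2.89 and 1.14 FPKM (-0.54) and 4.69 and 2.16 FPKM (-0.53). Crebbp and Ep300, the histone acetyltransferases that CREB recruits, gave -0.43 and -0.42 at 6.45 and 3.42 FPKM and 3.55 and 1.73 FPKM.

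**Figure D3:**
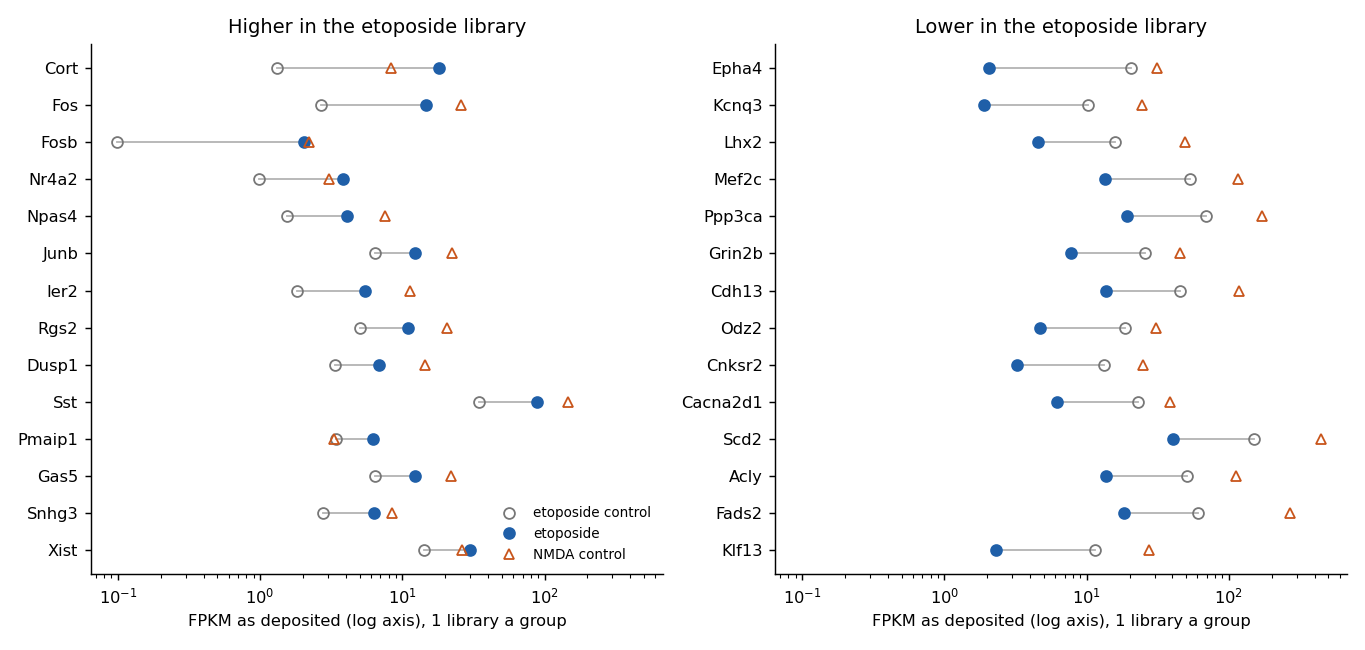
FPKM as deposited (log axis) in the etoposide control (open grey circles), the etoposide library (blue) and the NMDA control (orange triangles), 1 library a group, for members of several gene lists. Fos, Fosb, Nr4a2 and Ier2 lie to the right of their own control with etoposide, and the long synaptic genes to the left.

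Genes of the DNA damage response were mostly a little above the median gene. Over 33 p53 pathway members 29 were above 0, with a median of 0.28 and of 0.58 against the NMDA control after scaling, and 1 passed 2-fold (1.47% of all genes did). That member, Pmaip1 (Noxa), a promoter of cell death, was at 3.41 FPKM in the control, 6.26 with etoposide and 3.29 in the NMDA control, giving 1.04 and 2.69. Bbc3 (Puma), of the same class, was at 4.83 FPKM in the control, 6.29 with etoposide and 15.5 in the NMDA control (0.64), Trp53inp1 at 6.69 FPKM in the control, 9.58 with etoposide and 10.7 in the NMDA control (0.78) and Btg2 at 3.11 FPKM in the control, 4.77 with etoposide and 9.87 in the NMDA control (0.81). Cdkn1a (p21), a classical target, was at 13.2 FPKM in the control, 12.4 with etoposide and 25.2 in the NMDA control, giving 0.23 against its control and 1.04 against the NMDA control after scaling. Bcl2l1, which protects cells, was the lowest, at 16.3 and 8.13 FPKM (-0.6001).

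Among end-joining and recombination genes 9 of 11 were above 0, with a median of 0.35. Parp2 was at 2.44 and 3.36 FPKM (0.66) and Parp1, the main sensor of nicks, at 9.12 and 5.22 FPKM (-0.38). Lig4, which seals broken ends, was at 1.07 and 1.12 FPKM (0.35), with few fragments behind it. Break-signalling genes ranged from -0.19 to 0.59, and none of the 10 passed 2-fold. Gadd45b and Gadd45g, stress-induced regulators, were at 2.19 and 3.04 FPKM (0.67) and 3.73 and 5.99 FPKM (0.88), whereas Gadd45a was at 3.503 and 2.15 FPKM (-0.19).

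All 12 host genes of small nucleolar RNAs were above 0, a list whose introns carry guides for ribosomal RNA modification and whose spliced transcripts mostly encode no protein. Their median was 1.03, it stayed at 0.72 after span was taken off, and 6 passed 2-fold, against 1.47% of all genes. Between the untreated libraries the median was -0.01, and against the NMDA control after scaling it was 1.19, with 10 of 12 above 0. Many transcripts of these genes begin with a run of pyrimidines, as those of ribosomal proteins do, a feature through which growth signals act on translation. The first bases of 3 host genes and 2 ribosomal protein genes from the RefSeq table (GRCm38.p6) are shown for that reason, 15 bases before and 25 from the start, with the run of C and T from the annotated start in capitals. They lie at chr1:161035151-161035190 (plus), chr4:132308663-132308702 (plus), chr3:123508312-123508351 (minus), chr3:90213624-90213663 (minus) and chr2:39005107-39005146 (minus).
Gas5: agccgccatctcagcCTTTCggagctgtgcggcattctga
Snhg12: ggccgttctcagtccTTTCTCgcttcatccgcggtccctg
Snhg8: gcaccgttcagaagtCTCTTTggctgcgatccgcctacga
Rps27: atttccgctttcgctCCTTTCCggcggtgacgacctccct
Rpl35: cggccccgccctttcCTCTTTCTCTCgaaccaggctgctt
A run of at least 5 was found in 4 of 10 host genes with a window, 16 of 55 ribosomal protein genes and 5.21% of all genes compared. Gas5 has another annotated start, where the run is absent.

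Snhg1 was at 6.74 FPKM in the control, 14.8 with etoposide and 73.9 in the NMDA control, a relative log2 fold of 1.35 (FPKM ratio 2.19, interval 1.92 to 2.52), but -0.22 against the NMDA control after scaling. Snhg8 was at 3.52 FPKM in the control, 8.97 with etoposide and 11.03 in the NMDA control, giving 1.46 and 1.71, and Gas5, a growth-arrest transcript, at 6.45 FPKM in the control, 12.3 with etoposide and 21.9 in the NMDA control, giving 1.16 and 1.22. Snhg11, a transcript enriched in neurons, stood at 9.997 FPKM in the control, 17.5 with etoposide and 5.57 in the NMDA control, giving 1.07 and 3.52, the only host gene of the 12 that was lower in the NMDA control than in either other library as deposited. Most of these loci also hold the small RNAs themselves, and reads of the 2 cannot be told apart where the tables merge them.

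Other long noncoding RNAs were above the median gene too: 61 of 86 lincRNA genes were above 0 (median 0.26), 10 passed 2-fold higher (1.47% of all genes did) and 0 passed 2-fold lower (2.08%). Xist, the transcript that coats the inactive X chromosome, was at 14.1 FPKM in the control, 29.9 with etoposide and 26.3 in the NMDA control, giving 1.35 and 2.23. It shares its locus with other genes. The nuclear speckle transcript Malat1 was at 498 FPKM in the control, 679.9 with etoposide and 764 in the NMDA control (0.77), its neighbour Neat1 at 0.969 FPKM in the control, 1.93 with etoposide and 2.82 in the NMDA control (0.89), Miat at 17.5 FPKM in the control, 22.7 with etoposide and 22.97 in the NMDA control (0.68) and the imprinted Meg3 at 117 FPKM in the control, 151 with etoposide and 267 in the NMDA control (0.69). Against the NMDA control after scaling these 4 lay between 1.26 and 2.03. Mirg, transcribed from the same imprinted domain as Meg3, was at 3.67 FPKM in the control, 1.31 with etoposide and 7.76 in the NMDA control (-0.696), and Rian at 129 FPKM in the control, 106 with etoposide and 215 in the NMDA control (0.05), so the domain's transcripts did not share a value.

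Short genes of the protein-making and energy machinery were also higher. All 75 cytosolic ribosomal protein genes were above 0 (median 0.68, and 0.398 after span), with 7 at least 2-fold higher (1.47% of all genes were). This direction depended on the control: the NMDA control was higher still, by a median of 2.01 between the untreated libraries, and against it, after scaling, the etoposide library was at -1.27. Ribosomal protein genes have many processed copies, and their values are uncertain. Mitochondrial ribosomal protein genes were above 0 for 74 of 76 (median 0.42), but their median was -0.17 against the NMDA control as deposited. Genes of oxidative phosphorylation were above 0 for 69 of 75 (median 0.44), with -0.08 against the NMDA control after scaling.

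Ndufs4, a complex I subunit of 100.3 kb and thus long for its class, was at 13.4 FPKM in the control, 18.8 with etoposide and 46.8 in the NMDA control, giving 0.78 and 0.77. The proteasome divided by part, and its median, 0.31 over 39 genes, was -0.031 against the NMDA control as deposited. All 15 genes of the core particle, which cuts proteins, were above 0 (median 0.42), as were 15 of 20 of the regulatory particle (median 0.25). Psma7 was at 57.99 and 76.9 FPKM (0.72) and Psmd2 at 39.2 and 25.9 FPKM (-0.26).

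Replication-dependent histone genes, which have no introns and make transcripts without a poly(A) tail, were above 0 for 50 of 59, and 8 passed 2-fold (1.47% of all genes did). They are very short, and of all genes compared under 3 kb 7.34% passed 2-fold higher. The list's median was 0.51, and 0.20 after span was taken off, with 41 of 59 above the median of their span bin. All 11 H4 genes were above 0 (median 0.82) and all 17 H2B genes (median 0.57), but only 2 of 5 H1 genes. Against the NMDA control after scaling the medians were 0.09 for H4, 1.41 for H2B and -1.46 for H1, so their sizes depended on the control. Hist1h4c was at 54.5 FPKM in the control, 106 with etoposide and 155 in the NMDA control (1.28) and Hist1h1b, a linker histone of dividing cells, at 2.798 FPKM in the control, 0.471 with etoposide and 53.9 in the NMDA control (-1.05). Near-identical copies make single histone values uncertain. Progenitor and cell cycle genes lay mostly on the low side, with 10 of 13 below 0 and a median of -0.36. In that list 3 were at least 2-fold lower (2.08% of all genes were), and the median was -1.07 against the NMDA control after scaling. Ccnd1, a cyclin of the first growth phase, was at 11.2 FPKM in the control, 3.77 with etoposide and 16.4 in the NMDA control (-1.03). Pcna, the replication clamp, went the other way, at 11.7 FPKM in the control, 15.4 with etoposide and 48.8 in the NMDA control (0.69).

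Lipid synthesis was among the lower groups, with short genes in its sterol branch. Cholesterol is built by neurons and glia from acetyl-CoA in a chain of enzymes that the factor Srebf2 switches on together, and Srebf1 does the same for fatty acids. Of 23 sterol genes compared, 22 were below 0, 8 passed 2-fold lower against 2.08% of all genes, and 11 were in the authors' deposited table as lower. The median was -0.91, and it was -1.002 after span was taken off, since their median span was 16.3 kb. The NMDA control was also lower than the etoposide control for this list, by a median of -0.46, and against it, after scaling, etoposide gave -0.24. The size of the sterol difference thus depended on the control. Hmgcs1, an early enzyme of the chain, was listed at 0 in all 3 libraries and was not compared.

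In pathway order, Mvk, the mevalonate kinase, was at 17.5 FPKM in the control, 5.78 with etoposide and 42.3 in the NMDA control (-1.12), whereas Pmvk, which acts on its product, was at 16.02 FPKM in the control, 17.4 with etoposide and 54.005 in the NMDA control (0.44), the only sterol gene above 0. Idi1, the isomerase that follows, was at 30.97 and 23.8 FPKM (-0.05). The later enzymes were lower again: Sqle, the squalene oxidase, at 52.6 FPKM in the control, 19.03 with etoposide and 136 in the NMDA control (-1.098), and Lss, which closes the sterol rings, at 26.5 FPKM in the control, 8.11 with etoposide and 26.1 in the NMDA control (-1.27). Srebf2 itself was at 20.2 FPKM in the control, 8.04 with etoposide and 52.6 in the NMDA control (-0.91). Lss lay on the other side of 0 against the NMDA control after scaling, at 0.39, and so did Hsd17b7, at 1.06, after -0.88 against its own control.

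**Figure D4:**
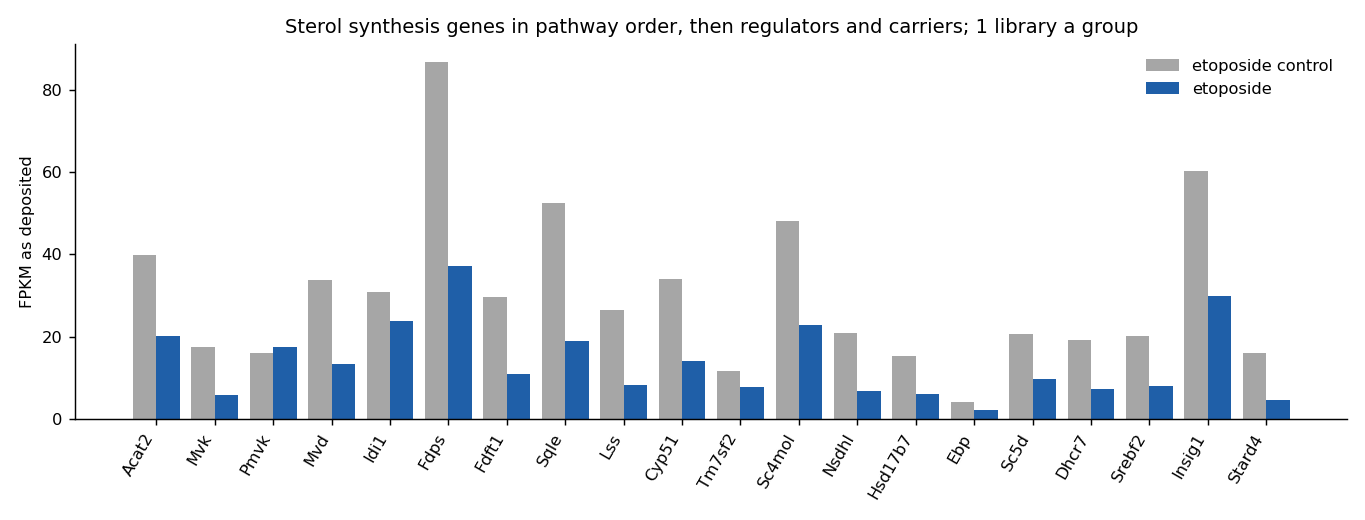
FPKM as deposited for sterol synthesis genes in pathway order, then regulators and carriers, in the etoposide control (grey bars) and the etoposide library (blue bars), 1 library a group. Pmvk, at 16.02 and 17.4 FPKM, is the only gene whose etoposide bar is the taller.

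Promoters of sterol genes commonly carry CCAAT, the site of NF-Y, beside the sterol response element. Windows of Lss and Mvk are shown because both genes were at least 2-fold lower, with CCAAT on either strand in capitals (ATTGG when read on the strand shown), from the same RefSeq table. They lie at chr10:76531455-76531614 and chr5:114444119-114444278, both on the plus strand.
Lss: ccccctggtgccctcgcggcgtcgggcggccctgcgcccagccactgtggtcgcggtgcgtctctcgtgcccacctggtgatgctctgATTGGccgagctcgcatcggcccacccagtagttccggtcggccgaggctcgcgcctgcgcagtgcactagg
Mvk: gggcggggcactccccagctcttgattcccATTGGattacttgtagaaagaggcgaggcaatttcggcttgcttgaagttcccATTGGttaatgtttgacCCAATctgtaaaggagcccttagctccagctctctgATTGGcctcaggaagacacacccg
CCAAT was found in 14 of 15 sterol genes with a window, in 12 of 17 fatty acid genes and in 43.3% of all genes compared. Pmvk, which was not lower, is among the 14.

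The 20 fatty acid genes had a median of -0.77, with 19 below 0 and 5 at least 2-fold lower (2.08% of all genes were). Their median span was 47.3 kb, and the median fold was -0.57 after span was taken off. Against the NMDA control after scaling the median fold was -0.6997, with 5 of 20 genes above 0, so here both controls gave a median of the same sign. Scd1, the desaturase that makes oleic acid, was at 11.04 FPKM in the control, 1.92 with etoposide and 46.1 in the NMDA control, a relative log2 fold of -1.72 (control over etoposide 5.75, interval 4.81 to 6.98) and -2.35 against the NMDA control after scaling. Its relative Scd2 was at 151 FPKM in the control, 40.4 with etoposide and 447 in the NMDA control (-1.55). Acly, which supplies acetyl-CoA, was at 51.04 FPKM in the control, 13.6 with etoposide and 112 in the NMDA control (-1.51) and Fasn, the synthase, at 43.3 FPKM in the control, 18.05 with etoposide and 89.2 in the NMDA control (-0.89). Fads2, a desaturase of polyunsaturated fatty acids, was at 60.2 FPKM in the control, 18.4 with etoposide and 269.6 in the NMDA control (-1.33), Elovl6, an elongase, at 11.1 FPKM in the control, 3.32 with etoposide and 23.9 in the NMDA control (-1.17) and Srebf1 at 3.77 FPKM in the control, 0.982 with etoposide and 24.6 in the NMDA control (-0.95). Elovl2, at 4.37 and 3.38 FPKM (0.03), was the member above 0.

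Stress responses gave mixed values. In the unfolded-protein and amino acid response Ddit3 (CHOP), a factor of prolonged stress, was at 9.098 FPKM in the control, 18.7 with etoposide and 96.7 in the NMDA control (1.28), and Hspa5 (BiP), the chaperone of the endoplasmic reticulum, at 47.7 FPKM in the control, 60.9 with etoposide and 229 in the NMDA control (0.67), while the amino acid carrier Slc7a5 was at 22.3 FPKM in the control, 10.3 with etoposide and 82.7 in the NMDA control (-0.72). Ddit3 was at -0.28 against the NMDA control after scaling, the other side of 0. Inflammatory targets of NF-κB were few: Cxcl1, a chemokine, was at 1.96 FPKM in the control, 4.94 with etoposide and 0.968 in the NMDA control (1.33), and 7 of 13 members were above 0. In glycolysis and hypoxia 18 of 26 were below 0 (median -0.22), with Gapdh at 87.7 FPKM in the control, 52.5 with etoposide and 369 in the NMDA control (-0.41). Txnrd1, a thioredoxin reductase, was the lowest antioxidant gene, at 20.9 and 8.28 FPKM (-0.92), and Gpx4, which protects lipids from oxidation, the highest, at 79.7 and 102 FPKM (0.68).

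Receptors, channels and synaptic proteins formed the bulk of the lower groups. All 4 measured NMDA receptor subunits were below 0. Grin2b, 444 kb long and dominant in young cortex, was at 25.7 FPKM in the control, 7.71 with etoposide and 45.5 in the NMDA control, giving -1.29 and, against the NMDA control after scaling, -0.46. Grin2a, which replaces it with age, was at 5.47 FPKM in the control, 1.205 with etoposide and 10.7 in the NMDA control (-1.23), and the obligate subunit Grin1, of 29.3 kb, at 19.8 FPKM in the control, 9.69 with etoposide and 87.2 in the NMDA control (-0.64). Each of the 21 AMPA receptor genes was below 0 as well (median -0.55). The pore subunits had a median of -0.58 and the auxiliaries -0.51, but against the NMDA control after scaling these were 0.03 and -0.71. Gria1 was at 29.6 FPKM in the control, 11.2 with etoposide and 53.9 in the NMDA control (-1.01) and Cacng3, an auxiliary that guides the receptor to synapses, at 4.61 FPKM in the control, 1.24 with etoposide and 17.8 in the NMDA control (-1.003).

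GABA-A receptor subunits lie next to each other in clusters of genes, yet differed by class against the etoposide control. The 3 β genes had a median of -0.72, all below 0, the 5 α genes -0.09 and the 3 γ genes 0.18. Against the NMDA control after scaling the medians were -0.41 for β, 0.001 for α and -0.03 for γ, so only the β genes stood apart there. Gabra5, an α subunit, was at 23.4 FPKM in the control, 17.6 with etoposide and 75.02 in the NMDA control (-0.07). The list's median was -0.25, the same as that of genes of like span. In metabotropic and kainate receptors, Grm7, of 922 kb, was at 9.26 FPKM in the control, 2.53 with etoposide and 26.6 in the NMDA control (-1.22) and Grik2, of 689 kb, at 9.69 FPKM in the control, 5.26 with etoposide and 14.6 in the NMDA control (-0.45), which puts genes of like length at different values.

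Postsynaptic scaffolds were below 0 for 25 of 26 genes (median -0.63), with 4 at least 2-fold lower (2.08% of all genes were) and 11 in the authors' deposited table as lower (6.28%). Cnksr2, a Ras scaffold, was at 13.3 FPKM in the control, 3.24 with etoposide and 25.02 in the NMDA control (-1.43), Dlgap1 at 15.9 FPKM in the control, 4.81 with etoposide and 31.2 in the NMDA control (-1.22) and Dlg4 (PSD-95), of 26.9 kb, at 36.2 FPKM in the control, 20.5 with etoposide and 150.1 in the NMDA control (-0.47). Homer3 was the member above 0, at 1.59 and 1.96 FPKM (0.52). Presynaptic genes were below 0 less far, with medians of -0.43 for active zone scaffolds and -0.41 for the vesicle machinery. Set against the NMDA control after scaling, the 2 medians were -0.27 and -0.11, with 6 of 21 and 18 of 43 genes above 0. Synaptophysin (Syp), of 14.7 kb, was at 102 FPKM in the control, 43.3 with etoposide and 406 in the NMDA control (-0.8999), synaptotagmin Syt1, of 512 kb, at 62.2 FPKM in the control, 23.9 with etoposide and 135 in the NMDA control (-1.02) and Syt4, of 9.61 kb, at 43.998 FPKM in the control, 46.1 with etoposide and 112 in the NMDA control (0.39). The calcineurin subunit Ppp3ca was at 69.5 FPKM in the control, 19.04 with etoposide and 171 in the NMDA control (-1.49).

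Trans-synaptic adhesion genes were below 0 for 23 of 25. Neuroligins, the partners of neurexins, had a median of -0.92 over 3 genes and neurexins -0.85 over 3. After span was taken off the medians were -0.74 and -0.43, and against the NMDA control after scaling -0.91 and -0.28. Nlgn1, of 900.1 kb, was at 13.9 FPKM in the control, 4.11 with etoposide and 33.9 in the NMDA control (-1.22) and Nlgn3, of 22.2 kb, at 15.6 FPKM in the control, 6.04 with etoposide and 53.4 in the NMDA control (-0.92). Cbln4, a secreted partner of 7.13 kb, was lower than both, at 4.98 FPKM in the control, 0.7297 with etoposide and 5.45 in the NMDA control (-1.47). Teneurins (Odz1 to Odz4), latrophilins and FLRT proteins, which bind each other across the synapse, were all below 0, and 3 of 10 passed 2-fold (2.08% of all genes did). Their median span was 573 kb, and of all genes compared of 300 to 1000 kb 14.4% passed 2-fold lower. The list's median was -0.77, and -0.42 after span was taken off. Odz2 was at 18.7 FPKM in the control, 4.67 with etoposide and 30.5 in the NMDA control (-1.47), Lphn3 at 13.5 FPKM in the control, 4.92 with etoposide and 27.4 in the NMDA control (-0.97) and Flrt2 at 6.12 FPKM in the control, 1.48 with etoposide and 10.2 in the NMDA control (-1.199).

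Cadherins and contactins split within families. Of 13 classical cadherins 5 were at least 2-fold lower, against 2.08% of all genes, and 3 were above 0. Most are long, and the list's median went from -0.43 to 0.05 after span was taken off. Cdh13 was at 45.6 FPKM in the control, 13.6 with etoposide and 117 in the NMDA control (-1.35), Cdh2 (N-cadherin) at 28.3 FPKM in the control, 8.905 with etoposide and 60.4 in the NMDA control (-1.24) and Cdh18, of 438 kb, at 1.95 FPKM in the control, 1.296 with etoposide and 3.697 in the NMDA control (-0.04). Opcml, an IgLON protein of 1134 kb, was at 30.5 FPKM in the control, 10.7 with etoposide and 73.3 in the NMDA control (-1.11), whereas the contactin-associated genes had a median of -0.18 over 5 members, above the median of their span bins by 0.31.

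Axon guidance genes held some of the largest differences. Epha4, an Eph receptor of 148 kb (chromosome 1, 77363760 to 77511663, mm9), had the lowest relative log2 fold of any gene at 5 FPKM or more that is no small RNA, -2.498, at 20.5 FPKM in the control, 2.04 with etoposide and 31.1 in the NMDA control, and gave -1.72 against the NMDA control after scaling. Of 11 Eph receptors 4 passed 2-fold lower, against 2.08% of all genes. Epha3 was at 8.14 FPKM in the control, 2.29 with etoposide and 9.26 in the NMDA control (-1.15, but 0.08 against the NMDA control after scaling), and Epha7, of 154 kb, nearly the length of Epha4, at 3.84 FPKM in the control, 2.64 with etoposide and 8.78 in the NMDA control (-0.09). Their ligands, the ephrins, are short genes, and all 5 measured were below 0 (median -0.57, and -0.66 after span). Efnb3 was at 23.8 FPKM in the control, 11.9 with etoposide and 59.1 in the NMDA control (-0.63).

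Plexins and neuropilins, the receptors of semaphorins, had a median of -0.89, with 4 of 10 at least 2-fold lower (2.08% of all genes were). The semaphorins themselves had a median of -0.29, with 0 of 15 past 2-fold. Netrins and their receptors gave -0.81 over 8 genes. Plxna2 was at 9.697 FPKM in the control, 2.43 with etoposide and 17.01 in the NMDA control (-1.32), Plxnc1 at 10.4 FPKM in the control, 2.71 with etoposide and 26.6 in the NMDA control (-1.296) and Neo1, a netrin receptor, at 22.3 FPKM in the control, 7.75 with etoposide and 56.1 in the NMDA control (-1.09). Robo2, a Slit receptor of 519 kb, was at 5.53 FPKM in the control, 4.22 with etoposide and 18.7 in the NMDA control, with the relative log2 fold of the median gene, and Slit3, of 587 kb, at 2.87 FPKM in the control, 0.411 with etoposide and 8.57 in the NMDA control (-1.13). Genes of like length in this signalling system thus differed by more than 2-fold, although both of these share a locus with another gene, whose span is counted in.

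All 15 calcium channel genes were below 0 (median -0.54). The α2δ subunits, which bring channels to the membrane, had the lowest median, -1.26 over 3 genes, with Cacna2d1 at 22.98 FPKM in the control, 6.17 with etoposide and 38.3 in the NMDA control (-1.42). The pore-forming α1 subunits had -0.65 over 8, with Cacna1e at 6.45 FPKM in the control, 2.25 with etoposide and 12.3 in the NMDA control (-0.88) and Cacna1h at 5.69 FPKM in the control, 4.27 with etoposide and 11.1 in the NMDA control (-0.02). Potassium channel genes were below 0 for 45 of 49, and Kcnq3, which carries the M current, was the lowest, at 10.3 FPKM in the control, 1.91 with etoposide and 24.5 in the NMDA control (-1.63). Scn2a1, the sodium channel of young axons, was at 23.8 FPKM in the control, 8.86 with etoposide and 51.97 in the NMDA control (-1.01) and Scn1a, of inhibitory neurons, at 4.52 FPKM in the control, 3.65 with etoposide and 4.198 in the NMDA control (0.07). Receptor tyrosine kinases were all below 0, 13 of 13, with Met at 13.7 FPKM in the control, 3.69 with etoposide and 49.4 in the NMDA control (-1.33) and Ntrk2, the receptor of Bdnf, at 36.2 FPKM in the control, 15.4 with etoposide and 204 in the NMDA control (-0.86).

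Peptides and lineage genes divided the cortical neuron types unevenly. Cortistatin (Cort) was at 1.31 FPKM in the control, 18.1 with etoposide and 8.35 in the NMDA control and somatostatin (Sst), of the same interneurons, at 34.6 FPKM in the control, 87.9 with etoposide and 147 in the NMDA control, both short genes, with relative log2 folds of 3.37 and 1.64. Npy, another interneuron peptide, was at 3.83 FPKM in the control, 4.56 with etoposide and 9.47 in the NMDA control (0.53), while Cck was at 33.5 FPKM in the control, 12.6 with etoposide and 163 in the NMDA control (-1.03). Other genes of inhibitory neurons were not higher with them: Gad1, which makes GABA, was at 32.4 FPKM in the control, 20.1 with etoposide and 47.5 in the NMDA control (-0.34), Lhx6, the factor of somatostatin cells, at 4.22 FPKM in the control, 2.41 with etoposide and 4.56 in the NMDA control (-0.29) and Slc32a1, the GABA vesicle carrier, at 8.12 FPKM in the control, 4.59 with etoposide and 17.2 in the NMDA control (-0.38). The 18 GABAergic genes had a median of -0.32, and of 0.23 against the NMDA control after scaling, so their direction depended on the control.

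Of 35 transcription factors of projection neurons 4 were at least 2-fold lower, against 2.08% of all genes. Lhx2, of 18.4 kb, was at 15.8 FPKM in the control, 4.51 with etoposide and 49.1 in the NMDA control, giving -1.28 and -1.304 against the NMDA control after scaling. Fezf2, of neurons that project below the cortex, is short and was at 2.39 FPKM in the control, 3.69 with etoposide and 8.904 in the NMDA control (0.79), and Tbr1 was at 3.89 FPKM in the control, 3.03 with etoposide and 6.71 in the NMDA control (0.04).

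Markers of other cells moved with several of the lower groups. The 20 astrocyte markers had a median of -0.59, with Slc1a2, the glutamate carrier, at 17.7 FPKM in the control, 6.801 with etoposide and 114 in the NMDA control (-0.94), but Gfap at 9.59 FPKM in the control, 8.64 with etoposide and 113 in the NMDA control (0.19) and Apoe at 104 FPKM in the control, 91.02 with etoposide and 1803 in the NMDA control (0.14). Smooth muscle and matrix genes had a median of -0.698, with 5 of 18 at least 2-fold lower (2.08% of all genes were). The 31 listed, those under 1 FPKM included, had a sum of 155 FPKM in the control, 69.6 with etoposide and 629 in the NMDA control. Myl9, a myosin light chain of contractile cells, was at 2.76 FPKM in the control, 0.185 with etoposide and 21.1 in the NMDA control (-1.34), and Cnn2, a calponin, at 2.26 FPKM in the control, 0.167 with etoposide and 9.57 in the NMDA control (-1.16). The 7 oligodendrocyte lineage genes compared had a median of -0.62, while Sox10, which defines the lineage, was near 0 in the pair, at 0.0582 and 0 FPKM. Glia also make sterols and fatty acids, and the part of these cells in the lipid and short-gene differences was not tested.

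Over the 75 lists with at least 3 measured members, 30 had a median above 0 and 45 below. The highest was the Nr4a family, at 1.17, and the lowest were the NMDA receptor subunits at -0.93 and sterol synthesis at -0.91. Once span was taken off, the NMDA receptor list stood at -0.75, the very long neuronal genes of no other family at -0.14 from -0.62, and sterol synthesis at -1.002.

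**Figure D5:**
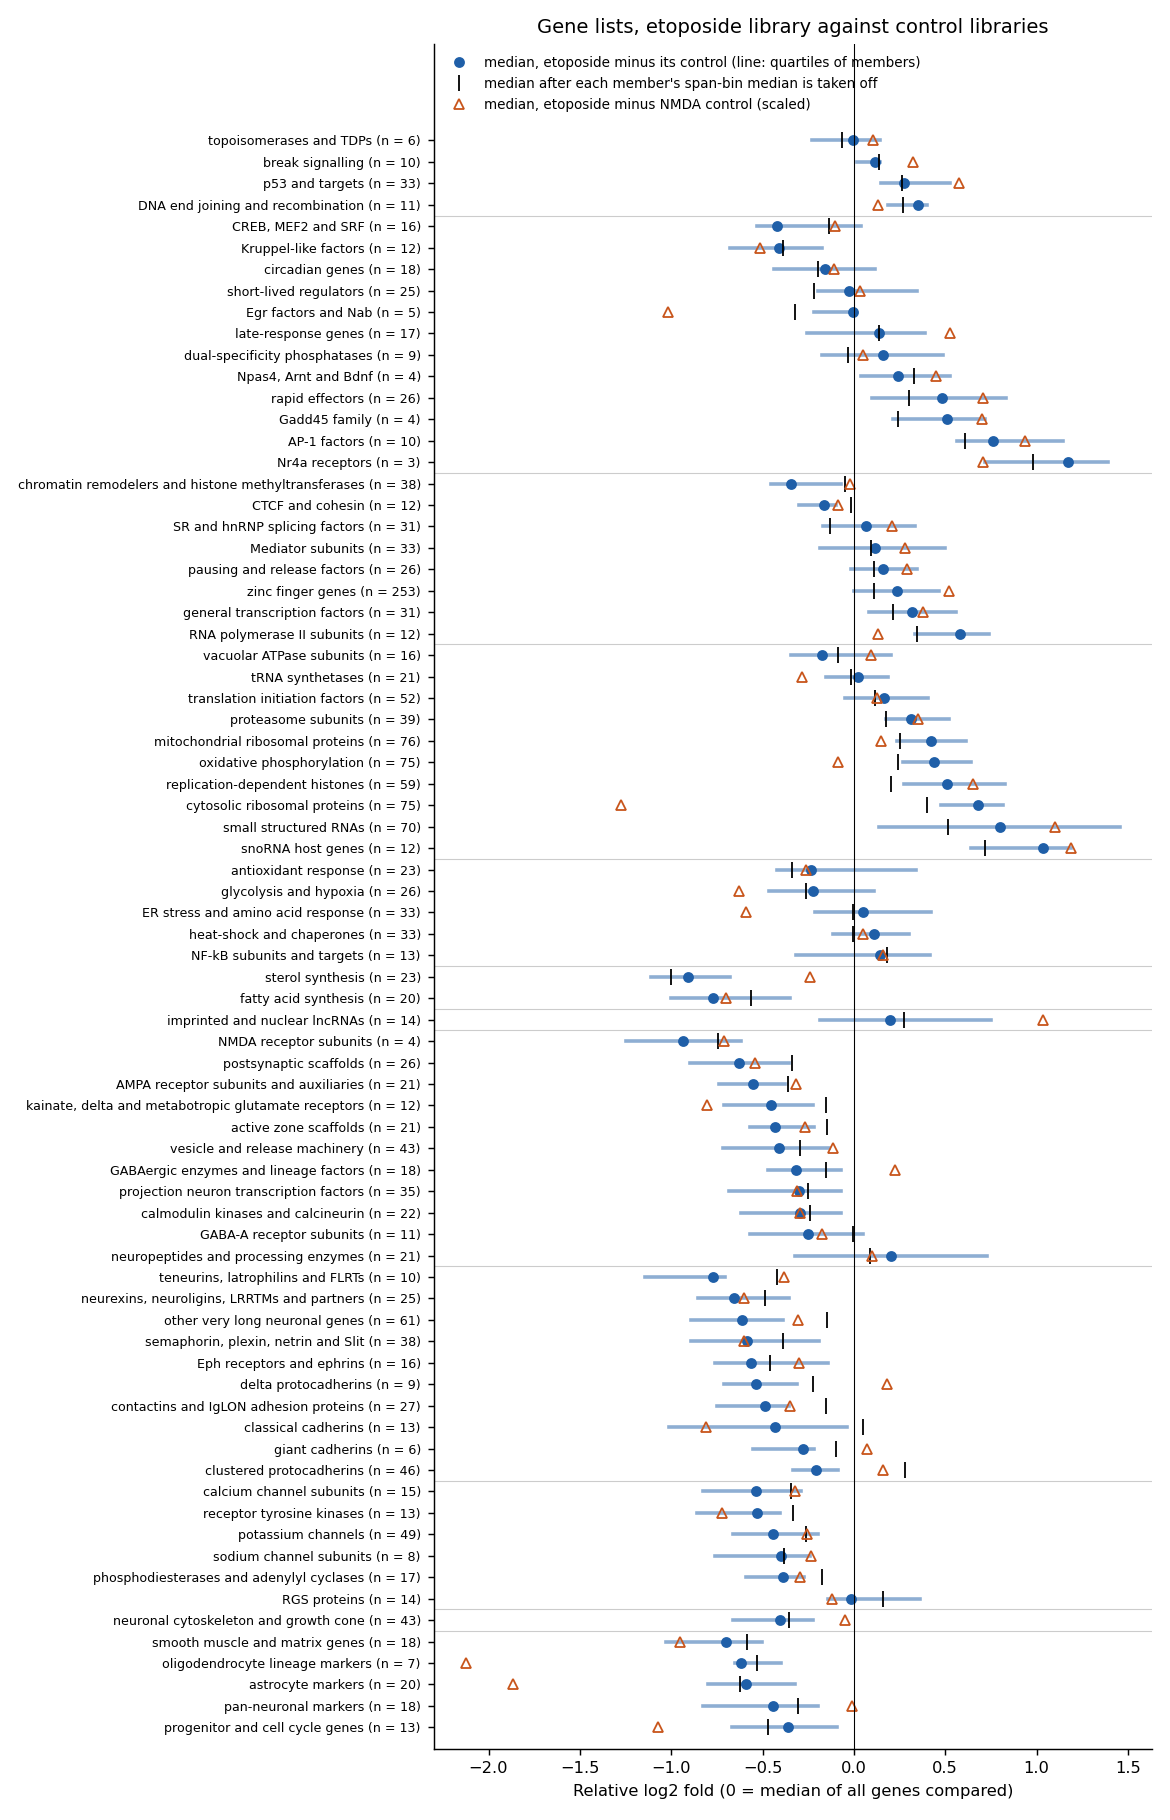
Median relative log2 fold of each gene list for etoposide minus its control (blue, with the quartiles of members as lines), the same after the median of each member's span bin is taken off (black ticks), and for etoposide minus the NMDA control after scaling (orange triangles), where 0 is the median of all genes compared. The ticks of most synaptic and channel lists lie nearer 0 than the blue points, and that of sterol synthesis lies farther from 0.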

How the data were processed

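FPKM were made by the authors and used as deposited, with a symbol and a locus per gene in mouse build mm9. Cufflinks 2.0.0, Cuffdiff, TopHat and Bowtie are named in the submitters' processing notes, without their roles. No depth was stated; totals were estimated from the steps between low values of genes with 1 exon. The relative log2 fold used a pseudocount of 1 FPKM, which understates low genes, and a filter of 1 FPKM in either library, in Python 3.11.15 with pandas 2.3.3. With 1 library a group no test was run, and no replicate exists. The steps were tested on simulated data.

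Genes whose locus overlaps that of others in the tables (1801 of those compared) carry the span of the merged locus. They were left out of the span bins of genes with a locus of their own. The span-bin medians taken off for gene lists, and the difference between genes over 300 kb and under 10 kb, used all genes compared. With these genes left out of bins and lists, medians after span changed. They were -0.009 for very long neuronal genes, 0.14 for classical cadherins, -0.29 for Krüppel-like factors, 0.03 for chromatin remodelers and -1.05 for sterol synthesis. Reads of overlapping, antisense or near-identical genes are uncertain. Gene types and exon lengths came from the GENCODE annotation of mm9. Promoter windows came from RefSeq (GRCm38.p6) for 7559 genes compared. Members and the 77 lists were chosen with earlier results of these data known. Named genes were the 5 largest folds each way in each list, all members of lists with at most 15, the 20 largest each way at 5 FPKM or more, the 10 highest of 300 kb or more and the 10 lowest under 10 kb, and Top2a and Top2b. Others were named after their values were seen. Some genes under these rules are left out of the text. Alternatives changed the pseudocount, filter, scaling, control and the genes kept. The 12 chromatin samples and the NMDA-treated library were not used here.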

Additional observations from a re-analysis of the deposited data

How the results depend on the processing

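The counts of 157 genes higher and 222 lower moved with the size of the pseudocount, to 399 and 498 at 0.1 FPKM and to 42 and 60 at 5 FPKM. With no filter on low values they were 76 and 507, and with 5 FPKM required in either library 156 and 130. Without genes that share a locus 100 were higher, and among protein coding genes alone, an alternative chosen after seeing the data, 101. With the NMDA control in place of the etoposide control 800 were higher and 1093 lower, and 767 and 1401 after median scaling. The median of genes over 300 kb minus that of genes under 10 kb was -0.72, and it stayed below 0 in each of the 10 alternatives run. It was -0.35 at a pseudocount of 5 FPKM, -0.15 with the NMDA control and -0.35 with that control scaled.

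Of the 46 lists with a median at least 0.3 from 0, 1 changed side under the 8 alternatives that kept the control, the oligodendrocyte lineage, at 0.035 with no filter. Of the 29 lists nearer 0, 14 changed side under at least 1 of these 8, and 8 and 6 did with the NMDA control as deposited and scaled. Among the 46, the medians of these lists lay on the other side of 0 with the NMDA control as deposited: RNA polymerase II subunits (-0.18), cytosolic ribosomal proteins (-1.65), mitochondrial ribosomal proteins (-0.17), oxidative phosphorylation (-0.49), proteasome (-0.031), GABAergic genes (0.17) and delta protocadherins (0.0047). After scaling, those of cytosolic ribosomal proteins (-1.30), oxidative phosphorylation (-0.085), GABAergic genes (0.032) and delta protocadherins (0.19) did, over members at 1 FPKM or more in that pair. So did 6 named genes past 2-fold. As deposited and scaled, Ddit3 was at -0.64 and -0.28, Epha3 at 0.028 and 0.076, Lcn2 at 0.11 and 0.28, Lss at 0.10 and 0.39, Rpl35 at -2.24 and -1.84 and Snhg1 at -0.58 and -0.22. The cause was not tested. No paired analysis was possible because each group had 1 library. Genes with few fragments, such as Fosb in the control or Lig4, carry wide counting intervals, and 1 library a group leaves the spread between cultures unmeasured.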
